A study of Mus musculus with 6 samples.

Results

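The 5p guide strands of the let-7 family and miR-98-5p were followed in the heart muscle (myocardium) of mice at 2 post-mortem intervals, which count from death to sampling. All rows named mmu-let-7 with the ending -5p, together with mmu-miR-98-5p, were taken, which gave 9 of the 984 mature miRNAs in the files. One group of 3 libraries was taken at 0 h and another of 3 libraries at 6 d. The labels name the species, the tissue and the interval. They do not state strain, genotype, age, sex or how the bodies were kept, nor that a group holds several animals. The p-values then measure only how these libraries vary, which may be technical variation.

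let-7 miRNAs are among the most conserved small RNAs of animals. A miRNA guide sits in an Argonaute protein and recognises messenger RNAs mainly through its seed, bases 2 to 8 from the 5′ end. Members of the let-7 family carry the same seed and so share most predicted targets, among them Hmga2, Lin28 and Ras transcripts. The family accumulates as cells differentiate and is abundant in adult heart, where the RNA-binding protein Lin28, which blocks the maturation of let-7 precursors, is scarce. The reads of a member do not tell which of its precursor genes they came from.

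The RefSeq miRNA table (build GRCm38.p6) held a mature sequence for all 9 members. They are shown because the members are separated by so few bases. The seed is in capitals.

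mmu-let-7a-5p: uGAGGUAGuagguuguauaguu
mmu-let-7b-5p: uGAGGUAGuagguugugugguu
mmu-let-7c-5p: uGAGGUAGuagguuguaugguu
mmu-let-7d-5p: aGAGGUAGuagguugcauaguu
mmu-let-7e-5p: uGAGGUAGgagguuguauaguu
mmu-let-7f-5p: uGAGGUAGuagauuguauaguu
mmu-let-7g-5p: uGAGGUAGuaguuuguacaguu
mmu-let-7i-5p: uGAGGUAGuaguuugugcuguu
mmu-miR-98-5p: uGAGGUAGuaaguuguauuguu

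Each sequence was 22 bases long, and every difference lay outside the seed. Counted from 1 at the 5′ end and read from let-7a-5p, the substitutions were A19G in let-7c-5p, U9G in let-7e-5p and G12A in let-7f-5p. let-7b-5p carried A17G and A19G, let-7d-5p U1A and U16C, let-7g-5p G12U and U18C, and miR-98-5p G11A and A19U. let-7i-5p was the most distant from let-7a-5p, with G12U, A17G, U18C and A19U. Of the 36 pairs of members, 4 differed by 1 base and 10 by 2. No source used here names the counting tool, and reads that fit more than 1 member may have been split or counted more than once. The values of let-7a-5p, let-7b-5p, let-7c-5p, let-7e-5p and let-7f-5p, which are linked by single-base differences, are uncertain to that extent. Other members are uncertain too where reads end before the bases that set them apart.

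These sequences lay in 12 hairpins of the RefSeq table, 2 each for let-7a-5p, let-7c-5p and let-7f-5p. Mirlet7d, Mirlet7f-1 and Mirlet7a-1 lay together on chromosome 13, with 1714 and 261 bases between them, in exonic sequence of the long non-coding RNA 6720427I07Rik by the GENCODE M21 annotation. Mirlet7c-2 and Mirlet7b lay 621 bases apart on chromosome 15, within exonic sequence of Lncppara. Mirlet7f-2 and Mir98 lay 785 bases apart on the X chromosome in an intron of Huwe1, a ubiquitin ligase gene. The mature let-7g-5p lay at chr9:106178846-106178867 on the plus strand, in an intron of Wdr82, and let-7i-5p at chr10:122985698-122985719 on the minus strand, in exonic sequence of D630033A02Rik. These positions are those of GRCm38.p6, and the build of the authors is not stated in the sources used here.

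Between 4468547 and 7906557 miRNA reads were counted per library at 0 h and between 617069 and 1889594 at 6 d. All 9 members passed the filter on low values, and the fewest reads of any member were the 133 of let-7e-5p in 6 d replicate 3. The heart and muscle miRNAs miR-1a-3p, miR-133a-3p, miR-208a-3p and miR-499-5p together held 22.8 to 37.4% of the reads at 0 h and 20.4 to 44.6% at 6 d, nearly all of it miR-1a-3p (-0.33, limma adjusted p = 0.67). The other 3 changed: miR-133a-3p rose by 1.43 on the log2 scale (limma adjusted p = 0.0069), while miR-208a-3p (-1.49, limma adjusted p = 0.024) and miR-499-5p (-1.48, limma adjusted p = 0.013) fell. A list of 9 markers of red blood cells, leukocytes, skeletal muscle, epithelium and liver held 1.17 to 1.40% at 0 h and 6.05 to 13.2% at 6 d. For 7 of these 9 all 6 d libraries lay above all 0 h libraries on the deposited scale, which is described below. Of all tested miRNAs 50.6% did not overlap in either direction on that scale, and 30.9% lay lower at 6 d without overlap. The leukocyte markers miR-142a-3p and miR-223-3p overlapped, and no marker was at 0 in any library. The part of these changes in the let-7 values was not tested. In tissue RNA, fewer cells of a type and less RNA per cell cannot be told apart.

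At 0 h the family was a major part of the cardiac miRNA pool. It held 9.12, 6.26 and 8.31% of the miRNA reads in the 3 libraries at 0 h and 3.96, 8.77 and 7.39% in those at 6 d. The means were 7.90% ± 1.47 and 6.71% ± 2.48 (SD, n = 3 each), and the groups overlapped. On the deposited scale, in counts per 1000000 reads divided by a further factor per library and called normalised CPM here, the summed family stood at 99237, 82375 and 93680 at 0 h and at 47663, 81204 and 41166 at 6 d. On that scale the groups did not overlap, though 6 d replicate 2 came near the lowest 0 h library. Whether the family as a whole stood lower at 6 d therefore depended on the scaling.

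let-7i-5p, let-7f-5p and let-7g-5p made up most of the family in fresh tissue. They held 30.8% ± 3.37, 29.1% ± 1.80 and 21.1% ± 1.59 of the family reads at 0 h (SD, n = 3 each). These were followed by let-7c-5p with 8.41% ± 0.77, let-7a-5p with 6.06% ± 0.38, let-7d-5p with 2.23% ± 0.18 and let-7b-5p with 1.80% ± 0.15. let-7e-5p held 0.388% ± 0.039 and miR-98-5p, the rarest, 0.211% ± 0.012. The order was the same in all 3 libraries at 0 h except at the top, where let-7f-5p exceeded let-7i-5p in replicate 2. The log2 difference between these 2 members, 0.077 ± 0.24 (SD, n = 3), was smaller than its spread. Every other neighbouring pair at 0 h kept its order in 3 of 3 libraries.

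**Figure D1:**
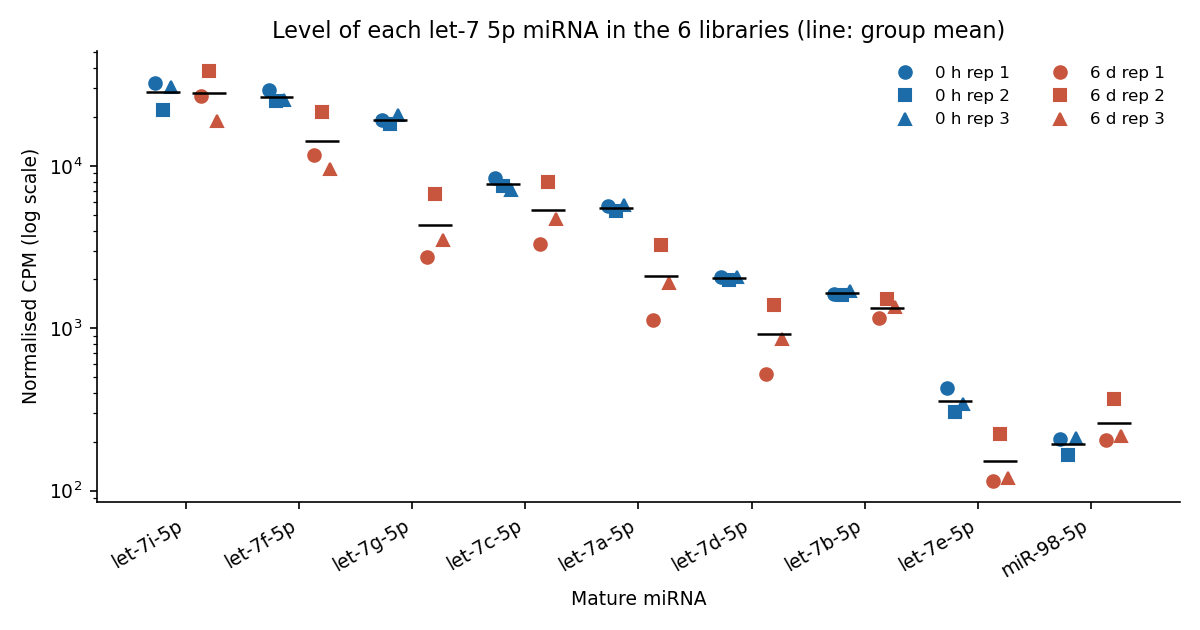
Normalised CPM (log scale) of the 9 members in each of the 6 libraries, ordered by their mean at 0 h; blue points are 0 h, red points 6 d, and black lines group means. let-7g-5p lies between 18115 and 20608 at 0 h and between 2743 and 6681 at 6 d, while let-7i-5p overlaps between the groups.

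The order at 6 d was another. let-7i-5p was first in all 3 libraries and exceeded let-7f-5p by a log2 difference of 1.01 ± 0.19 (SD, n = 3). let-7c-5p passed let-7g-5p and took the third place in every 6 d library, by 0.32 ± 0.11. miR-98-5p passed let-7e-5p, by 0.80 ± 0.083, and let-7b-5p passed let-7d-5p, by 0.64 ± 0.51, each in 3 of 3 libraries. The neighbours let-7a-5p and let-7b-5p did not differ beyond their spread at 6 d (0.52 ± 0.56), and their order held in 2 of 3 libraries.

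The share of let-7g-5p in the family was 19.2, 22.0 and 22.0% at 0 h and 5.75, 8.23 and 8.45% at 6 d. That of let-7i-5p was 32.8, 26.9 and 32.6% at 0 h and 56.3, 47.2 and 46.2% at 6 d. The 2 shares thus moved apart with no overlap between the groups, and at 6 d let-7i-5p held 49.9% ± 5.57 of the family and let-7g-5p 7.48% ± 1.50 (SD, n = 3 each). let-7f-5p held 29.5, 30.6 and 27.1% and then 24.4, 26.5 and 23.1%. let-7a-5p held 5.67, 6.42 and 6.11% and then 2.38, 3.99 and 4.61%. Both lay lower in every 6 d library than in any 0 h library. The share of miR-98-5p was 0.209, 0.200 and 0.224% at 0 h and 0.433, 0.450 and 0.526% at 6 d, above all 0 h values. let-7e-5p lay at 0.363 to 0.433% and then at 0.239 to 0.292%, with a Wilson 95% interval of 0.246 to 0.345% for the last value, which covers counting error only. The shares of let-7b-5p, let-7c-5p and let-7d-5p overlapped between the intervals. In all, 6 of the 9 shares did not overlap, 4 lower and 2 higher at 6 d, while 41.1% of all tested miRNAs did not overlap when set against the same family reads.

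**Figure D2:**
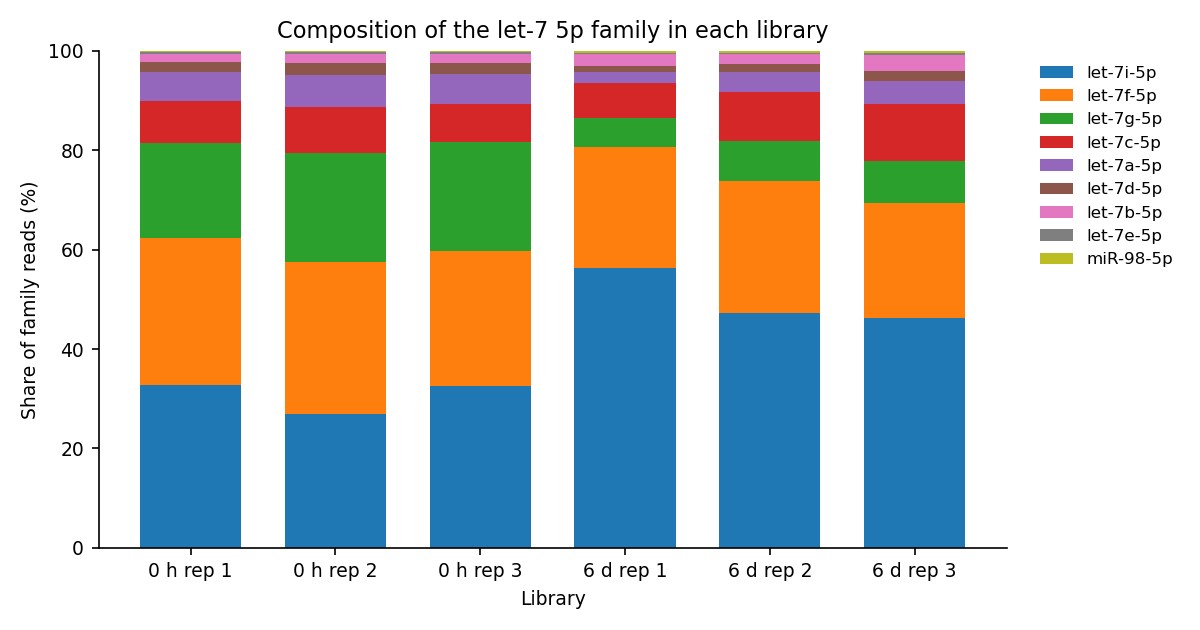
Share of the let-7 5p family reads (%) held by each of the 9 members, one stacked bar per library, 3 at 0 h and 3 at 6 d. The let-7i-5p segment grows from 26.9 to 32.8% at 0 h to 46.2 to 56.3% at 6 d, and the let-7g-5p segment shrinks from 19.2 to 22.0% to 5.75 to 8.45%.

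Measured against all miRNAs, let-7g-5p fell furthest of the members. It stood at 19087, 18115 and 20608 normalised CPM at 0 h and at 2743, 6681 and 3477 at 6 d. All 6 d values lay below all 0 h values, and 6 d replicate 2 was the highest of its group. The log2 fold change was -2.27 ± 0.37 (SE, n = 3 each, limma adjusted p = 0.0014). Among all 984 miRNAs let-7g-5p ranked 10 to 12 by reads at 0 h and 17 to 28 at 6 d. It fell under each of the 17 alternative settings, including library totals alone. With other filters, the replicate block or other members summed, its fold change could not differ from this value.

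let-7a-5p, whose sequence is that of the let-7 of nematodes and flies, stood at 5625, 5289 and 5720 normalised CPM at 0 h. At 6 d it stood at 1132, 3242 and 1898. It fell by 1.54 ± 0.39 on the log2 scale (SE, limma adjusted p = 0.013), and the groups did not overlap. let-7e-5p, encoded beside miR-99b and miR-125a, stood at 430, 303 and 340 and then at 114, 224 and 120. It fell by 1.28 ± 0.36 (limma adjusted p = 0.019). let-7d-5p, encoded beside let-7a-1 and let-7f-1, stood at 2058, 1997 and 2057 and then at 522, 1385 and 858. It fell by 1.25 ± 0.38 (limma adjusted p = 0.026). In these 3 members 6 d replicate 2 was again the highest 6 d library on this scale and 6 d replicate 1 the lowest. With library totals alone as the scaling none of the 3 calls was kept (limma adjusted p = 0.17, 0.24 and 0.31 in the order given). After thinning to the smallest library none was kept either, by the median limma adjusted p of 10 draws (0.053, 0.088 and 0.13 in the same order). The call of let-7d-5p was also lost without 0 h replicate 1 (0.080), 0 h replicate 2 (0.068), 0 h replicate 3 (0.060) or 6 d replicate 1 (0.051). It was lost as well with RLE size factors (limma adjusted p = 0.067), in edgeR (edgeR adjusted p = 0.090) and in DESeq2 (DESeq2 adjusted p = 0.094). The call of let-7e-5p was lost without 0 h replicate 1 (0.086).

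let-7f-5p, the second most abundant member, stood at 29257, 25232 and 25390 normalised CPM at 0 h and at 11649, 21558 and 9521 at 6 d. The groups did not overlap, but its log2 fold change of -0.99 ± 0.36 missed the threshold (SE, limma adjusted p = 0.054). It was called without 6 d replicate 2, at -1.33 (limma adjusted p = 0.011), and when only miRNAs passing a filter of 10 were tested (limma adjusted p = 0.043). let-7c-5p stood at 8366, 7548 and 7145 and then at 3326, 7934 and 4727, so that 6 d replicate 2 lay within the 0 h values. Its log2 fold change was -0.62 ± 0.36 (limma adjusted p = 0.21). This was -0.32 without 6 d replicate 1, -0.95 without 6 d replicate 2 (limma adjusted p = 0.0504) and -0.16 with library totals alone. let-7b-5p differed by little, with 1632, 1594 and 1701 normalised CPM at 0 h and 1153, 1518 and 1346 at 6 d. The log2 fold change, -0.30 ± 0.29, missed the threshold (limma adjusted p = 0.42).

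let-7i-5p stood at 32575, 22133 and 30509 normalised CPM at 0 h and at 26819, 38298 and 19003 at 6 d. The groups overlapped fully, and its log2 fold change was -0.06 ± 0.35 (SE, limma adjusted p = 0.90). The sign was positive with library totals alone (0.40), so no direction can be given for this member. By reads it ranked 7 to 11 among the 984 miRNAs at 0 h and 5 to 7 at 6 d. miR-98-5p, encoded beside let-7f-2, stood at 207, 165 and 210 and then at 206, 365 and 217. At 0.39 ± 0.34 its log2 fold change was the highest of the 9, and it missed the threshold (limma adjusted p = 0.38). It was 0.13 without 6 d replicate 2 and 0.85 with library totals alone, and was called in neither.

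By the limma test, 4 of the 9 members fell and 0 rose, while 21.9% of the 470 tested miRNAs fell, 16.0% rose and 37.9% changed in either direction. The median log2 fold change of the members was -0.99 and that of all tested miRNAs -0.33. The latter was 0.02 under library totals alone and -0.17 under RLE size factors, another scaling, and the values of all members shift upward with it. For 6 of the 9 all 6 d libraries lay below all 0 h libraries on the deposited scale, against 30.9% of the tested miRNAs, with 50.6% not overlapping in either direction. On plain shares of the miRNA reads 2 of the 9, let-7a-5p and let-7g-5p, did not overlap, which was below the 39.8% of all tested miRNAs. The quasi-likelihood test of edgeR on the recovered reads called let-7a-5p (-1.21, edgeR adjusted p = 0.039), let-7e-5p (-1.05, edgeR adjusted p = 0.049) and let-7g-5p (-1.98, edgeR adjusted p = 0.0028), with 43.0% of its tested miRNAs called. With library totals alone the limma test called 1 member, let-7g-5p. The same single member was called after every library was thinned to 617069 reads, by the median adjusted p of 10 draws.

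**Figure D3:**
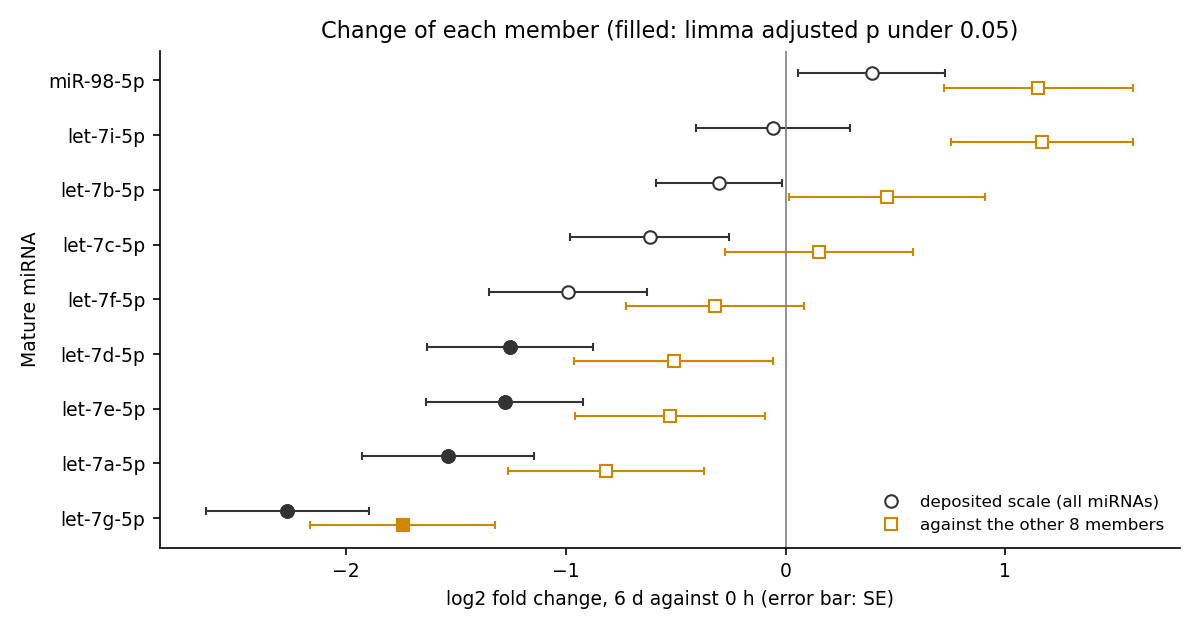
Log2 fold change at 6 d against 0 h with its SE for each member, on the deposited scale (circles) and against the summed reads of the other 8 members (squares); filled symbols have a limma adjusted p under 0.05. On the deposited scale 4 members are filled, against the rest of the family let-7g-5p alone, at -1.74.

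To compare members with each other and not with all miRNAs, each was set against the sum of the other 8. This ratio does not depend on how a library is scaled. let-7g-5p fell by 1.74 ± 0.42 on the log2 scale relative to the rest of its family (SE, n = 3 each, limma adjusted p = 0.0076). It was the 1 member called, while 27.7% of all tested miRNAs were called against the family sum. let-7i-5p stood at 1.17 ± 0.42 (limma adjusted p = 0.051) and miR-98-5p at 1.15 ± 0.43 (limma adjusted p = 0.064), neither past the threshold. Without 6 d replicate 2 both were called, at 1.25 and 1.18 (limma adjusted p = 0.024 and 0.034). Both were also called with a filter of 10 (limma adjusted p = 0.038 and 0.048). Leaving out any other library called neither (limma adjusted p from 0.069 to 0.18 for let-7i-5p and from 0.089 to 0.22 for miR-98-5p). With the sum of all 9 members as reference let-7i-5p stood at 0.70 (limma adjusted p = 0.24). let-7a-5p, which fell against all miRNAs, stood at -0.82 ± 0.45 against its family (limma adjusted p = 0.20), and the other 5 lay between -0.53 and 0.46. With the median of the other 8 in place of their sum, which gives the rare members the same weight as the abundant ones, let-7g-5p stood at -1.19 and was not called (limma adjusted p = 0.12). miR-98-5p was then called, at 1.63 (limma adjusted p = 0.031).

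The reads of let-7g-5p relative to let-7i-5p show the contrast in raw counts. There were 0.586, 0.818 and 0.675 let-7g-5p reads per let-7i-5p read at 0 h and 0.102, 0.174 and 0.183 at 6 d. These members differ from each other by A17G and A19U, read from let-7g-5p. Reads shorter than 17 bases would not tell them apart, and read lengths were not analysed here. This pair was chosen after its values were seen and is given as a description.

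On the deposited scale the 6 d libraries did not lie equally far from the fresh tissue. Relative to the mean of the 0 h libraries, the median member stood at 0.433 in 6 d replicate 1, 0.810 in 6 d replicate 2 and 0.421 in 6 d replicate 3. All 9 members were highest in 6 d replicate 2 among the 6 d libraries on this scale, whereas 29.1% of all tested miRNAs were. let-7g-5p was the lowest member and miR-98-5p the highest in each of the 3, at 0.142 and 1.06, 0.347 and 1.88, and 0.180 and 1.12. The highest 6 d value of a member was 1.32 times (let-7b-5p) to 2.86 times (let-7a-5p) its lowest, against 1.03 to 1.47 times at 0 h. This scale divides by factors of 0.831, 1.08 and 1.80 in 6 d replicates 1, 2 and 3. On plain shares of the miRNA reads the family held 3.96, 8.77 and 7.39% in that order, so that 6 d replicate 1 stood apart. let-7b-5p and let-7d-5p were then highest in 6 d replicate 3 and the other members in 6 d replicate 2.

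**Figure D4:**
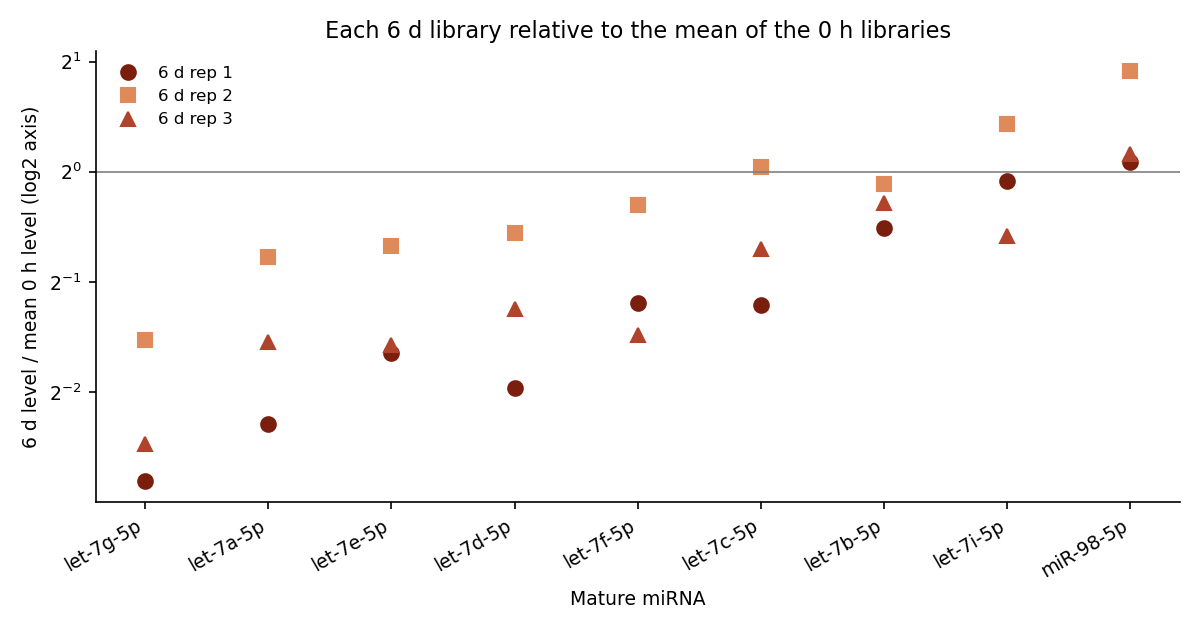
Level of each member in each 6 d library divided by its mean over the 0 h libraries (log2 axis; the grey line marks equality). On the deposited scale, used here, all 9 members are highest in 6 d replicate 2. let-7g-5p is the lowest member and miR-98-5p the highest in each of the 3 libraries.

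The members also divided at 1 base of the 3′ part, a split chosen after the fold changes were seen and given as a description. The 4 members with a substitution of base 19, A19G in let-7b-5p and let-7c-5p and A19U in let-7i-5p and miR-98-5p, had the 4 highest log2 fold changes, between -0.62 and 0.39. The 5 members that keep the base of let-7a-5p there, let-7a-5p, let-7d-5p, let-7e-5p, let-7f-5p and let-7g-5p, had the 5 lowest, between -2.27 and -0.99. Among other tested miRNAs of 22 bases in the RefSeq table, the median log2 fold change was -0.59 for the 41 with A as base 19, -0.27 for the 45 with C, -0.23 for the 54 with G and -0.19 for the 91 with U. The falls passing the limma threshold numbered 10, 15, 8 and 19 of these, so the share that fell was not highest for A.

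Reads shorter than 19 bases would not tell let-7a-5p from let-7c-5p, which differ by A19G alone, and read lengths were not analysed here. With the 5 members linked by single-base differences summed, their joint log2 fold change was -0.93 ± 0.35 (SE, limma adjusted p = 0.059). The remaining members were not summed, so their fold changes could not move and tell nothing about how reads were assigned. let-7d-5p and let-7g-5p were called, at -1.25 and -2.27, and let-7i-5p and miR-98-5p were not.

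Members encoded together did not all stand together. The chromosome 13 trio had log2 fold changes of -1.54 (let-7a-5p), -1.25 (let-7d-5p) and -0.99 (let-7f-5p), and the chromosome 15 pair -0.62 (let-7c-5p) and -0.30 (let-7b-5p). The X chromosome pair stood at -0.99 (let-7f-5p) and 0.39 (miR-98-5p). let-7a-5p, let-7c-5p and let-7f-5p also come from a second locus, whose part cannot be told apart.

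let-7a, let-7c and let-7e each have a hairpin in a conserved cluster with a miR-99/100 and a miR-125 gene. Distances here run from the mature 5p strand of the neighbour to the let-7 hairpin, not between hairpins as above. Mir99a lay 695 bases from Mirlet7c-1, Mir99b and Mir125a 136 and 372 bases from Mirlet7e, and Mir100 5257 bases from Mirlet7a-2. The miR-125b genes lay much farther off, Mir125b-1 45128 bases from Mirlet7a-2 and Mir125b-2 46528 bases from Mirlet7c-1. All 5 neighbours fell, against 21.9% of the tested miRNAs, with a median log2 fold change of -2.12. miR-99a-5p stood at 101255, 93910 and 144729 normalised CPM at 0 h and at 23575, 25109 and 30467 at 6 d, a log2 fold change of -2.08 ± 0.31 (SE, limma adjusted p = 0.0010). The log2 fold changes of the other 4 were -2.12 (miR-99b-5p), -1.81 (miR-100-5p), -2.96 (miR-125a-5p) and -2.42 (miR-125b-5p), with limma adjusted p between 0.00077 and 0.0017. let-7e-5p, beside miR-99b and miR-125a, stood at -1.28, and let-7c-5p, beside miR-99a, at -0.62. The difference between these neighbours and the let-7 members was not tested.

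One further row of the files carries a let-7 name without an arm. mmu-let-7j, printed because it is so near to let-7i-5p, has the seed in capitals with its last base changed.

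mmu-let-7j: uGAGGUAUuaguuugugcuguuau

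Over the length of let-7i-5p it differed from that member by 1 base. At 0 h 55, 82 and 97 of the reads were assigned to it, and at 6 d 12, 11 and 7. It may share reads with the far more abundant let-7i-5p and its values are uncertain. Its log2 fold change was -0.59 ± 0.42 (SE, limma adjusted p = 0.28). Of the 261 miRNAs compared for likeness to the summed family over the 6 libraries, let-7j was nearest, with a root mean square distance of 0.13 on centred log2 values. This place rests on 7 to 12 reads per library at 6 d, so counting error leaves it uncertain. miR-872-5p (0.21) and miR-547-3p (0.28) came next, with log2 fold changes of -0.72 and -0.96, neither past the threshold. Of the members let-7f-5p (0.14) was nearest to the sum and let-7g-5p (0.78) farthest. Each member is itself part of that sum, so the nearness of an abundant member such as let-7f-5p is partly built in. These distances cannot be set beside those of let-7j, miR-872-5p and miR-547-3p, which lie outside the sum.

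The RefSeq table held 851 of the 984 names, so that families sharing a seed are incomplete in it. Of the 6 seeds with at least 4 tested members found there, let-7 had the fifth widest range of log2 fold changes, 2.66 between let-7g-5p and miR-98-5p. The range was 3.07 for a seed shared by let-7 and miR-98 3p strands, 2.89 for the miR-15 seed, 2.88 for the miR-17 seed, 2.69 for the miR-25 seed and 2.05 for the miR-181 seed. The median of the let-7 5p members, -0.99, was the lowest of the 6. The next lowest was -0.20, in the let-7 and miR-98 3p strands. Families differ in size and depth, and no test was made.

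The 5p strands held 98.5 to 98.9% of the reads of both arms at 0 h and 96.6 to 98.5% at 6 d. For let-7d the 3p strand had 1931, 2975 and 3904 reads against 8455, 12002 and 13322 of the 5p strand at 0 h. At 6 d it had 854, 665 and 1222 against 820, 1047 and 951.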

How the data were processed

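Small RNA libraries of mouse myocardium, 3 at 0 h and 3 at 6 d, were prepared with a NEBNext kit from 500 ng of total RNA, per the labels' protocols. FastQC, Trimmomatic 0.39, cutadapt 2.8 and STAR 2.5.3a are listed in the submitters' processing notes without roles. The counter, the annotation and the build are not stated there. Per the file headers each file holds 1 library. Raw counts make up the deposited file of 0 h replicate 1. The remaining 5 contain, as deposited, log2(x + 1) values with 3 decimals. In these, x was a whole multiple of 1 step per library in 2692 of 2692 testable values, within the rounding of 0.0005, and so gave reads. Larger read numbers carry that rounding, 0.0347% of the value. The counts were put on the scale of the other 5 by a derived factor of 0.919, with which the 6 factors multiply to 1. limma 3.58.1 (trended, robust) was fitted to log2(value + 1) of the 470 miRNAs at 1 or more in at least 3 libraries, with Benjamini-Hochberg adjustment over all. A call is an adjusted p under 0.05. Fold changes are on this scale, which understates those of low miRNAs. edgeR 4.0.16 and DESeq2 1.42.0 were run on the recovered reads.

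The same limma fit was made on log2 ratios, each member over the other 8 and every other miRNA over all 9. The steps were tested on simulated data. For 6 d against 0 h, 23.3% of 2-fold changes were recovered, 61.8% of 4-fold changes and 89.1% of 16-fold changes. Among the simulated miRNAs that were called, 4.14% were false. The simulated spread between libraries was fixed and the same for every miRNA, not estimated from these data. The rates pool rare and abundant miRNAs and are not rates for the members. A missed threshold at a change near 2-fold does not show that a member was unchanged. The members and lists were chosen with earlier results of these data known. The text names the members, 5 cluster neighbours, let-7j (the 1 further name with bases 2 to 7 of the let-7 seed) and the 3 nearest profiles. Counting error of the family shares was at most 17.0% of the value (Wilson 95% interval, to either side). The reads carry no molecular identifiers, so intervals cover counting error only. No 2 libraries of a group agreed within sampling noise (lowest chi-square per degree of freedom 216).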

Additional observations from a re-analysis of the deposited data

How the results depend on the processing

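let-7g-5p was called under every alternative of the comparison with all miRNAs. The number of members called, 4 of 9, became 1 with library totals alone, 1 after thinning (1 to 3 over 10 draws) and 2 with near-identical members summed, where 5 values were tested. It ranged from 2 (without 0 h replicate 1) to 5 (without 6 d replicate 2) when 1 library was left out, and was 5 with a filter of 10 and 3 with RLE size factors, edgeR or DESeq2. With the replicate block it was 4, the same 4 members, and 195 miRNAs were called in all. Deviations of libraries with the same number correlated at 0.068, 0.064 and 0.27, and 0 h replicate 1 was closest to 6 d replicate 2 (0.16). Correlations of deviations centred within groups of 3 libraries cannot decide whether the numbers mark pairs. The labels do not say so either, and the numbers were not treated as pairs. Against the rest of the family the 1 call became 3 with a filter of 10, where fewer miRNAs were tested, and ranged from 1 to 3 when 1 library was left out. It was 1 with the median of the other members, but another member. Without miR-1a-3p in the denominator the family share was 11.1% at 0 h and 9.84% at 6 d.

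The log2 fold change of let-7i-5p, -0.06, turned positive with library totals alone (0.40), RLE size factors (0.17), edgeR (0.14), DESeq2 (0.22) and thinning (0.30), and ranged from -0.31 to 0.19 when 1 library was left out. That of let-7b-5p was 0.16 with library totals alone and 0.085 after thinning. Against the family, let-7f-5p stood at 0.085 with the median as reference, and let-7c-5p ranged from -0.022 to 0.37 when 1 library was left out. None of these was called, and the cause was not tested.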
